A study of Mus musculus with 7 samples.

Results

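The complement system was examined through 9 genes, chosen by symbol: the receptors C5ar1, C5ar2 and C3ar1, the components C3, C4b, C1ra, C1s1 and Cfd, and the regulator Serping1. All 9 matched 1 row each among the 42687 gene rows of the count table, and they were picked with the diet comparison of these libraries known, C5ar1 having been called in it. The fold changes of the 9 genes between the diets are therefore given as a description, and nothing is concluded from their test results. RNA came from cells carrying both CD24 and CD29, sorted by flow cytometry from digested femurs of C57BL/6 mice, a population that the labels call skeletal stem cells of bone. Mice 3 months old at the start ate either a high fat diet with 60% fat (HFD, 3 libraries, numbers 2 to 4) or a low fat control diet with 10% fat (LFD, 4 libraries, numbers 1 to 4), each over 4 weeks. The comparison asks which transcripts of the sorted cells differed between the diets.

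Complement is a cascade of plasma proteases and binding proteins. The C1 complex, in which C1r activates C1s, cleaves C4 and C2, all routes meet at the cleavage of C3, and later steps release the peptide C5a and build a pore in the target membrane. C3a and C5a act on receptors of neutrophils, monocytes and macrophages, whereas the liver and, locally, stromal cells make many of the soluble proteins. In bone marrow, reticular stromal cells are known sources of several components and regulators, and adipocytes are the classic source of adipsin, the product of Cfd.

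Total counts per library ranged from 17391613 to 24681838. Values are CPM, counts scaled to 1e+06 of the TMM-adjusted library total, and the spread is the SD over 3 HFD or 4 LFD libraries. The libraries of the diets also differed in sex-linked transcripts: Xist had 0 counts in each HFD library and 257 to 526 in each LFD library, and 4 Y-linked genes together had 2494 to 3405 counts in each HFD library and 1 to 5 in each LFD library. The labels give no sex, and diet and sex cannot be told apart in any comparison below. Cartilage and bone marker lists were abundant in every library (summed 33246.8 to 57360.1 CPM in HFD and 20866.2 to 43906.8 CPM in LFD for 8 chondrocyte genes), while the pan-leukocyte gene Ptprc (CD45) was also detected, at 49.6 to 55.9 CPM in HFD and 0.117 to 24.8 CPM in LFD. Erythroid transcripts were high in all libraries, with 8 genes summing to 22126.1 to 107046.4 CPM in HFD and 92025.5 to 157607.9 CPM in LFD. In RNA from pooled sorted cells, more cells of a type and more RNA per cell cannot be told apart.

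The upstream sequences of 3 members are shown to set 2 genes whose groups did not overlap, C5ar1 and C3, beside a gene whose groups did: C5ar2, the neighbour of C5ar1 on chromosome 7 with 2588 bases between the genes, had few counts. Each RefSeq window (GRCm38.p6) runs 5′ to 3′ from 250 bases before to 50 bases after the annotated start. All 3 genes lie on the minus strand, at chr7:16259289-16259588 (C5ar1), chr7:16244105-16244404 (the upstream of 2 C5ar2 windows) and chr17:57228087-57228386 (C3). Capitals mark matches, on either strand, to the searched motifs.
C5ar1: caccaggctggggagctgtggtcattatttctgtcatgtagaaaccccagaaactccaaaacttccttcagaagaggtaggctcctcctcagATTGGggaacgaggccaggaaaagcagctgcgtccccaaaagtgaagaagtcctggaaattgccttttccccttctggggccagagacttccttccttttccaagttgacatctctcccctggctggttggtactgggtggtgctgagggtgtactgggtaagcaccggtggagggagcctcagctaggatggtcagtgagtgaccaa
C5ar2: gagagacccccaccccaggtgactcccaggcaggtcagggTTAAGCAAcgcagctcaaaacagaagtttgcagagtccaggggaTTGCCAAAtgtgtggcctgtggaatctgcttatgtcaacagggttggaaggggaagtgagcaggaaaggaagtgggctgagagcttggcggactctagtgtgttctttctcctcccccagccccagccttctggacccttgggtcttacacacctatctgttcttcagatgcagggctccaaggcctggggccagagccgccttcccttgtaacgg
C3: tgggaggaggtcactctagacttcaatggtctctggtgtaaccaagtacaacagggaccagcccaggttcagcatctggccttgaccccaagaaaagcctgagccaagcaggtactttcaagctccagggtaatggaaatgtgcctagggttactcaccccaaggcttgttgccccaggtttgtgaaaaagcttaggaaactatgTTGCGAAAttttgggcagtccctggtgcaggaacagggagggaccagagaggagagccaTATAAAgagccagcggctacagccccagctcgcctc
The search covered the TATA box, with the letters TATAAA. It also covered the CCAAT box, spelled as in its name, and the C/EBP motif TTGCNNAA. For PU.1, a factor of myeloid cells, the letters searched were GAGGAAG. The STAT motif was searched as TTCNNNGAA, and no marked matches overlap in these windows. The C5ar1 window held 1 match, a CCAAT box on the opposite strand, found in 37.4% of the 32851 windows of the reference. The C5ar2 window held 2 matches to the C/EBP motif, present in 10.8% of windows. C3 also had the C/EBP motif, as TTGCGAAA beginning 45 bases before the annotated start. Its TATA box match (13.6% of windows) began at position 15 downstream of that start. The second C5ar2 window, not shown, held 1 match, to the PU.1 motif (13.6% of windows), beginning 26 bases before its start. Of the 9 members, 7 had a window in the reference. C1ra, whose groups also did not overlap, had a window that is not shown, with matches to the C/EBP and STAT motifs (STAT in 8.3% of windows). C1s1, whose groups overlapped, held a C/EBP match as well. These matches describe letters and not binding.

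Of the receptors, C5ar1 had the widest separation of the diets, C5ar2 was near the detection limit and C3ar1 was not detected. C5ar1 encodes the main receptor for C5a, a chemoattractant receptor of neutrophils and monocytes (ENSMUSG00000049130, chromosome 7, 16246743 to 16259540, mm10). It measured 101.2, 91.9 and 87.2 CPM in HFD 2, 3 and 4, against 12.4, 13.5, 15.5 and 23.7 CPM in LFD 1 to 4. The lowest HFD library was thus well above the highest LFD library, and the HFD values lay close to each other. The means were 93.4 ± 7.14 CPM in HFD and 16.3 ± 5.14 CPM in LFD (SD, n = 3 and 4), a log2 fold change of 2.52 ± 0.26 (SE).

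C5ar2 encodes a second C5a receptor, which binds the peptide but does not couple to G proteins (chromosome 7, 16234585 to 16244154). Its counts were 114, 80 and 2 in HFD 2, 3 and 4, and 21, 0, 25 and 24 in LFD 1 to 4. In CPM this was 3.99, 3.86 and 0.0955 in HFD and 0.819, 0, 1.56 and 1.19 in LFD, so that HFD 2 and 3 were above all LFD libraries and HFD 4 was below 3 of them. The log2 fold change of 1.57 had an SE of 1.47. HFD 4, with 2 counts of C5ar2, had 1825 counts of its neighbour C5ar1.

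C3ar1, the receptor for C3a (chromosome 6, 122847138 to 122856161), had 0 counts in all 7 libraries. Taking 3 counts as the limit that a count of 0 allows, its level was at most 0.105 to 0.188 CPM, depending on the library. No annotated exon of another gene overlapped it and none of its 50-base windows occurred in another transcript of the annotation, a length taken from the 50-base reads that the labels name. With no counts in any library, C3ar1 could not be compared between the diets.

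Among the soluble components, C3 was higher in HFD, C1ra was higher by a smaller factor, and C4b and C1s1 overlapped between the diets. C3, the protein on which all routes of activation converge (ENSMUSG00000024164, chromosome 17, 57203970 to 57228136), measured 96.6, 119.7 and 138.3 CPM in HFD 2, 3 and 4, against 22.8, 48.0, 49.6 and 56.8 CPM in LFD 1 to 4. The groups did not overlap, and LFD 1 was the lowest library. The means were 118.2 ± 20.9 CPM in HFD and 44.3 ± 14.8 CPM in LFD, a log2 fold change of 1.42 ± 0.31. The order within HFD was the reverse of that of C5ar1, with HFD 4 highest for C3 and lowest for C5ar1.

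C4b, the mouse C4 gene whose product is cleaved by C1s (chromosome 17, 34728380 to 34743882), measured 458.0, 218.2 and 208.9 CPM in HFD 2, 3 and 4 and 364.2, 410.4, 132.4 and 272.3 CPM in LFD 1 to 4. HFD 2 was the highest library and LFD 3 the lowest, and the diets overlapped. The means of 295.0 ± 141 CPM in HFD and 294.8 ± 123 CPM in LFD gave a log2 fold change of 0.00 ± 0.44.

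C1ra, the protease that activates C1s (chromosome 6, 124512405 to 124523443), measured 22.2, 24.8 and 19.5 CPM in HFD 2, 3 and 4, against 13, 6.26, 8.78 and 16.1 CPM in LFD 1 to 4. The groups did not overlap, although HFD 4 and LFD 4 were near each other, and the log2 fold change was 1.01 ± 0.36. C1s1, which cleaves C4 and C2, lies tail to tail with C1ra at a distance of 6901 bases (124530345 to 124542359). It measured 11.9, 10.0 and 14.5 CPM in HFD 2, 3 and 4 and 17.2, 6.52, 5.17 and 9.14 CPM in LFD 1 to 4. LFD 1 was the highest library of all, the groups overlapped, and the log2 fold change was 0.35 ± 0.46. The 2 subunit genes of the same complex thus had the same order of mean level in both diets but not the same separation between the diets.

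Near-identical copies limit the counts of these components. Of the 50-base windows of the longest transcript, 35.2% of C4b occurred in C4a, 48.0% of C1ra in C1rb and 24.3% of C1s1 in C1s2, and a further 15% of C1s1 in the antisense gene Gm16567. C4a had at most 0.175 CPM in any library, C1rb at most 0.035 CPM and C1s2 at most 0.311 CPM. The treatment of reads that match several places is not stated by the labels, so the levels of C4b, C1ra and C1s1 are uncertain. C5ar1, C3, C3ar1, Cfd and Serping1 shared no such window with another gene.

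Cfd encodes adipsin, the protease that cleaves factor B in the alternative pathway (chromosome 10, 79890853 to 79892655), and had 0 counts in all 7 libraries, with the same limit of 0.105 to 0.188 CPM. Of 6 adipocyte marker genes, 4 were also at 0 in every library, among them Cidec, Lep and Retn, and the list summed to 0.874 to 1.91 CPM in HFD and 1.83 to 9.79 CPM in LFD. Adipoq, the adiponectin gene, was counted in the reticular stroma list instead and was detected. It measured 21.4, 26 and 23.5 CPM in HFD 2, 3 and 4, against 0.039, 19.5, 3.3 and 2.62 CPM in LFD 1 to 4. Serping1, the C1 inhibitor that inactivates C1r and C1s, was in contrast the member with the highest level per length (chromosome 2, 84765387 to 84775444). It measured 322.8, 295.9 and 279.2 CPM in HFD 2, 3 and 4 and 410.6, 222.3, 326.6 and 209.0 CPM in LFD 1 to 4. All HFD libraries lay inside the LFD range, and the log2 fold change was 0.04 ± 0.28.

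**Figure D1:**
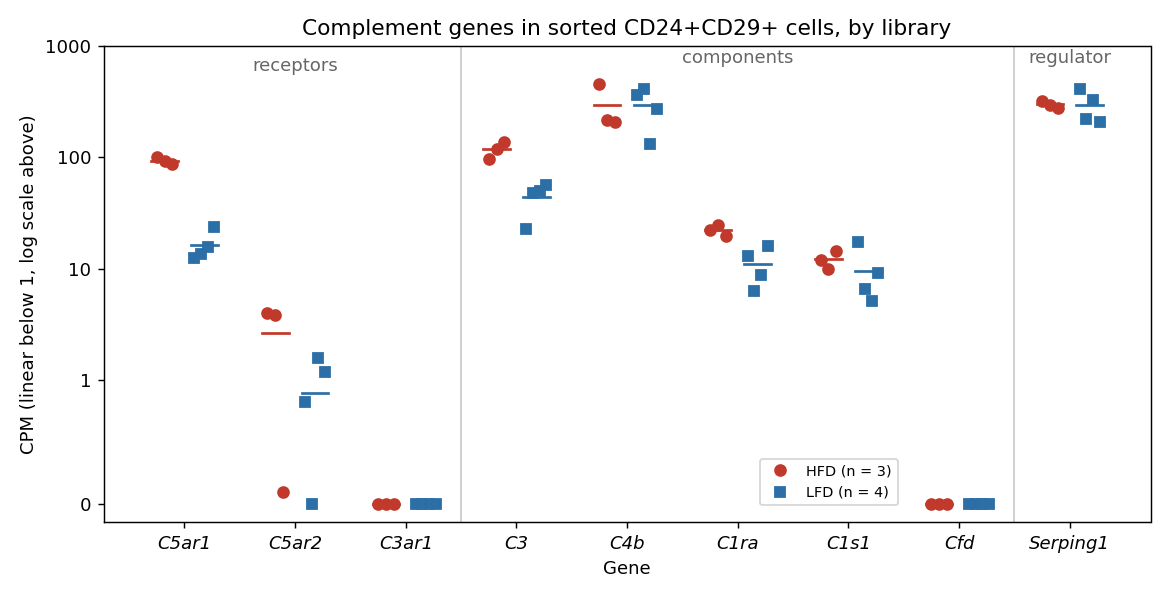
CPM of the 9 members in each library (vertical axis, linear below 1 and on a log scale above), with HFD libraries as circles (n = 3), LFD libraries as squares (n = 4) and a line at each mean. C5ar1, C3 and C1ra show no overlap between the diets, C4b, C1s1, C5ar2 and Serping1 overlap, and C3ar1 and Cfd are at 0 in all 7 libraries.

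In the fit over the whole table, 7 of the 9 members passed the filter on low counts and 1 of them, C5ar1, had an adjusted p under 0.05 by edgeR's quasi-likelihood test, where 0.0350% of the 14304 genes tested did (0.0280% higher and 0.00699% lower in HFD). C5ar1, C3 and C1ra had groups that did not overlap with HFD above LFD, as did 8.40% of all genes tested. Since the members were chosen with this contrast known, nothing is read from these counts. The call of C5ar1 was lost, at log2 fold changes of 2.42 to 2.57, when any of HFD 2, HFD 3, HFD 4, LFD 1, LFD 2 or LFD 3 was left out, and also when Xist and the 4 Y-linked genes were left out of the adjustment. It was kept at 2.76 without LFD 4.

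Levels were compared between genes as CPM per kilobase of merged exons. In HFD, Serping1 was highest at 128.7 ± 9.47 per kilobase, followed by C4b at 51.8 ± 24.8, C5ar1 at 36.3 ± 2.78, C3 at 23.0 ± 4.06, C1ra at 7.44 ± 0.887, C1s1 at 3.88 ± 0.711 and C5ar2 at 0.744 ± 0.621. The ranges of C4b and C5ar1 overlapped, and those of the other neighbours in this order did not. In LFD the order began alike, with Serping1 at 125.6 ± 40.8 and C4b at 51.8 ± 21.5 CPM per kilobase, but C3 (8.61 ± 2.89) came before C5ar1 (6.33 ± 2), C1ra (3.70 ± 1.46), C1s1 (3.04 ± 1.73) and C5ar2 (0.250 ± 0.187). In LFD the ranges of C3 and C5ar1, of C5ar1 and C1ra, and of C1ra and C1s1 overlapped, so the order of these 4 genes was not separated by the spread, while C5ar2 lay below C1s1. The per-length range of C5ar1 thus overlapped that of C4b in HFD, with the higher mean for C4b, and those of C3 and C1ra in LFD.

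**Figure D2:**
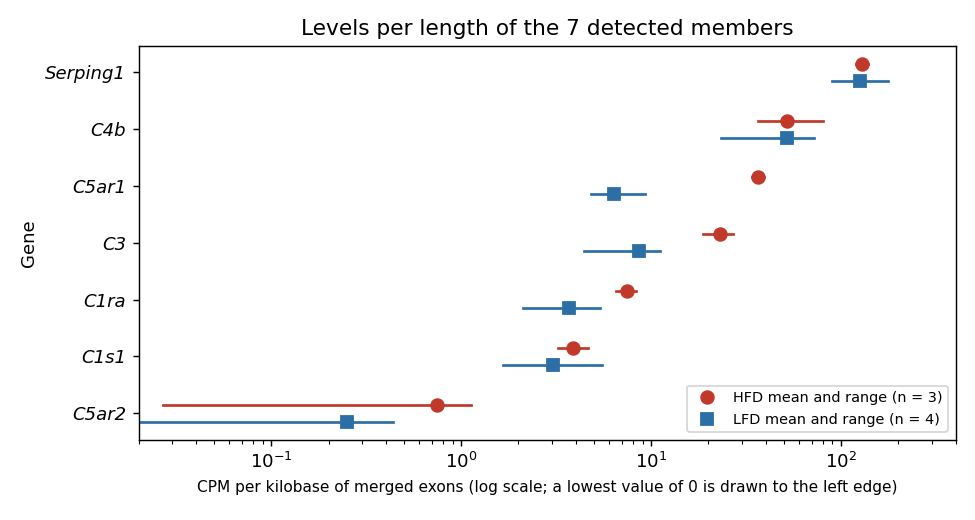
Level of the 7 detected members as CPM per kilobase of merged exons (horizontal axis, log scale), with circles for HFD means (n = 3), squares for LFD means (n = 4) and bars from the lowest to the highest library. C5ar1 stands at 36.3 in HFD, above C3, and at 6.33 in LFD, below C3, while Serping1 and C4b hold the same place in both diets.

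Markers of myeloid cells followed the same division of the libraries as C5ar1. All 12 neutrophil markers had higher mean values in HFD, 10 of them without overlap, and their sum was 8423.7 to 15955.6 CPM in HFD against 913.6 to 5218.0 CPM in LFD, with a median log2 fold change of 2.30. Of 13 tested monocyte and macrophage markers, 12 had higher values in HFD, and the list of 14 summed to 2115.3 to 2551.7 CPM in HFD against 532.2 to 1126.2 CPM in LFD (median 1.75). Lyz2 (1461.7 to 1919.1 CPM in HFD, 116.3 to 704.5 CPM in LFD) and F13a1 made up most of that sum. F13a1 overlapped between the diets, at 384.2 to 450.8 CPM in HFD and 232.8 to 391.7 CPM in LFD. Csf1r measured only 12.6 to 30.6 CPM in HFD and 0 to 6.87 CPM in LFD. The median of all genes tested was 0.02, and 8.40% of all genes tested had HFD above LFD without overlap. None of these markers passed edgeR's adjusted threshold. Of the 14 monocyte and macrophage genes, 9 had groups that did not overlap. Among them was Fcgr1, with 0 counts in all LFD libraries and only 12 to 40 counts (0.573 to 1.40 CPM) in HFD. The macrophage gene Adgre1 overlapped, at 2.66 to 6.08 CPM in HFD and 0 to 7.71 CPM in LFD. Mrc1 also overlapped and had the 1 lower estimate in HFD, a log2 fold change of -0.84 ± 2.28. The part of myeloid RNA in the values of C5ar1 was not tested. Mast cell and basophil markers, whose cells also carry complement receptors, were at or near 0, with 3 of 7 genes at 0 in every library and sums of at most 0.812 CPM in HFD and 0.247 CPM in LFD.

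Within HFD the marker genes did not all rank the libraries alike. The neutrophil sum was lowest in HFD 2 and highest in HFD 4, and C3 followed that order. C5ar1 had the opposite order, which it shared with Mmp8 (290.8, 220.1 and 204.6 CPM in HFD 2, 3 and 4), Retnlg (320.8, 222.6 and 218.3 CPM), Cxcr2 (42.0, 25.7 and 20.7 CPM) and Csf3r (60.4, 43.8 and 34.5 CPM), 4 of the 12 neutrophil markers, singled out after their values were seen. Of the others, 7 had the order of the sum, among them Ly6g (23.1, 38.4 and 44.9 CPM in HFD 2, 3 and 4), S100a8 (1948.2, 2641.5 and 3704 CPM) and S100a9 (1727.9, 2212.5 and 2861.8 CPM). Within LFD, C5ar1, C3, the neutrophil sum and the monocyte sum were all highest in LFD 4.

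Reticular stroma markers also divided the libraries by diet. All 8 tested genes had higher values in HFD and 7 did not overlap, where 8.40% of all genes tested had HFD above LFD without overlap. The sum was 2683.0, 2222.6 and 1549.7 CPM in HFD 2, 3 and 4 against 314.3, 437.6, 198.3 and 368.1 CPM in LFD 1 to 4 (median log2 fold change 1.73). C4b and Serping1, the 2 members with the highest levels per length, overlapped between the diets. Of the other detected components, C1s1 overlapped as well, while C3 and C1ra were higher in every HFD library than in any LFD library. Osteoblast markers summed to 26020.4 to 41083.2 CPM in HFD and 12399.1 to 28133.2 CPM in LFD, fibroblast markers to 197.5 to 341.5 CPM in HFD and 243.3 to 408.0 CPM in LFD, and both lists overlapped between the diets. The sum of 8 endothelial markers was lower in HFD, at 7.87 to 20.2 CPM against 21.1 to 51.3 CPM in LFD, but each gene overlapped between the diets. Of the 5 endothelial genes tested, 4 had lower and 1 had higher estimates in HFD, and none was called by edgeR. Which cells carried the C3, C4b, C1ra, C1s1 and Serping1 transcripts was not tested.

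**Figure D3:**
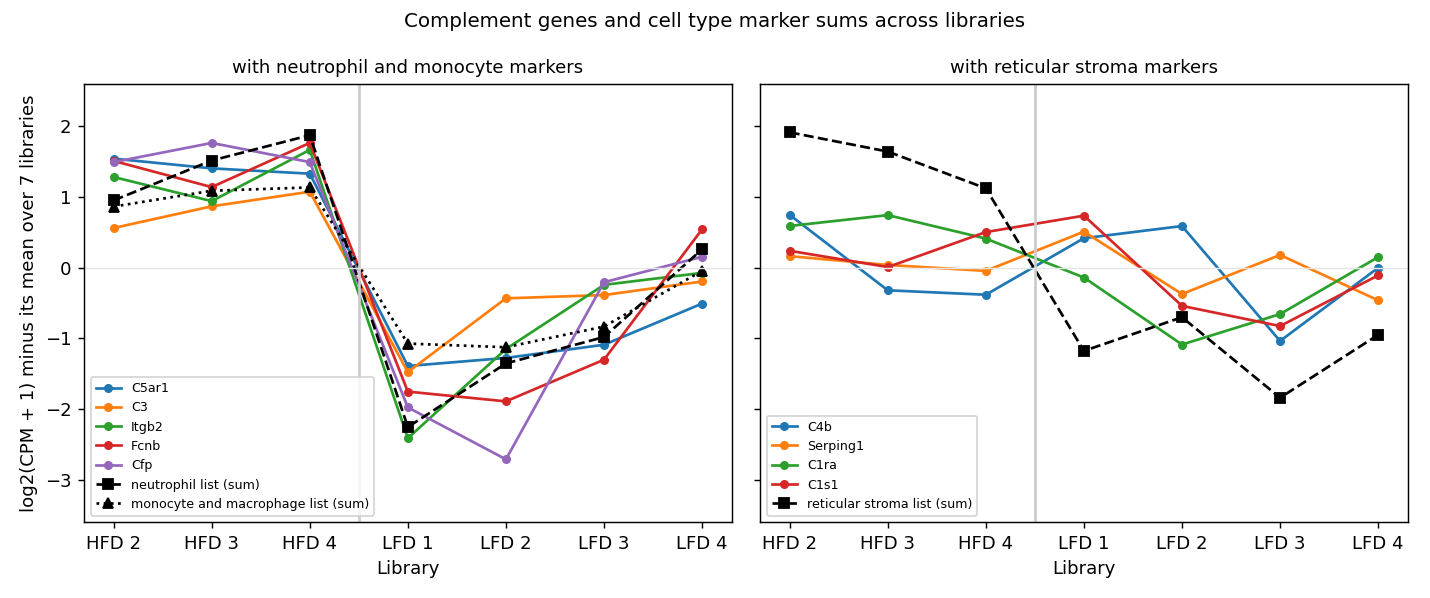
Difference of log2(CPM + 1) from its mean over the 7 libraries (vertical axis) for each library (horizontal axis), for complement genes (coloured) and for sums of cell type marker lists (black). Lines join points for reading and imply no order. On the left, C5ar1, C3, Itgb2, Fcnb and Cfp divide the libraries as the neutrophil and monocyte lists do. On the right, C4b, Serping1 and C1s1 cross the diets, while C1ra and the reticular stroma list are higher in every HFD library than in any LFD library.

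The genes whose log2(CPM + 1) pattern over the 7 libraries was most like that of a member were taken as the 5 with the highest Pearson correlation among 8981 or 8982 genes with a mean of at least 8 CPM. The correlations span both diets and therefore hold the difference between them. Among the nearest to C5ar1 were G0s2 (r = 0.986), the glucose transporter gene Slc2a3 (0.979), Mgst1 (0.979) and Ret (0.978). The nearest to C3 were Ncf4 (r = 0.988) and Ncf1 (0.980), for subunits of the phagocyte NADPH oxidase, I830127L07Rik (0.986), Chil3 (0.982) and Hcls1 (0.980). Chil3 measured 827.0 ± 314 CPM in HFD and 207.4 ± 131 CPM in LFD. Serping1 and C4b had other neighbours, Ak3 (0.981) and Tmco4 (0.972) for Serping1 and Ttyh2 (0.986) and 2310039H08Rik (0.976) for C4b. C1ra was nearest to Pgd (0.985), C1s1 to Rrp15 (0.985) and C5ar2, which had few counts, to Pigc (0.996). All these values are the highest of many over 7 libraries, and whether they exceed those of unrelated genes was not tested. No gene appeared among the 5 nearest of more than 1 member.

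A wider set of 50 other complement genes was counted by role. Of these, 23 passed the filter on low counts, 27 did not, and 11 genes had 0 counts in every library. Of the 23, 17 had higher and 6 lower estimates in HFD, with a median log2 fold change of 0.91, against a median of 0.02 and 51.5% higher over all genes tested. None of the 23 passed an adjusted p of 0.05 by edgeR's quasi-likelihood test. An unadjusted p under 0.05 was seen for 7 of them and for 7.53% of all genes; 6 were higher in HFD (5.18% of all genes) and 1 lower (2.35%). The groups did not overlap for 8 genes with HFD above LFD (8.40% of all genes) and for 1, Vtn, with HFD below LFD (3.47% of all genes). DESeq2 called 4 (Itgb2, Fcnb and C7 among them, all higher in HFD, where it called 2.09% of all genes with an adjusted p) and limma-voom called 0 (0.182% of all genes). Genes of low level could pass the filter through the higher diet alone, so these counts do not stand for the whole set.

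Among the pattern recognition and early genes, Fcnb, a ficolin of neutrophils and monocytes in the mouse, measured 68.4, 52.7 and 81.8 CPM in HFD 2, 3 and 4, against 6.24, 5.58, 8.90 and 34.5 CPM in LFD 1 to 4. LFD 4 was the library nearest to the HFD group, and the groups did not overlap. The log2 fold change was 2.29 ± 0.64 (edgeR adjusted p = 0.382), and without LFD 4 it was 3.29 (adjusted p = 0.0471, with a range of 0.0224 to 0.902 over all alternatives). Colec12, a membrane collectin and scavenger receptor of stroma and endothelium, measured 302.4 ± 115 CPM in HFD and 195.7 ± 59.0 CPM in LFD and overlapped. The C1q genes, products of macrophages, were scarce: C1qc measured 5.28, 0.773 and 1.15 CPM in HFD 2, 3 and 4 and 0, 1, 1.06 and 3.02 CPM in LFD 1 to 4. C1rl, a relative of C1r, measured 10.4 ± 3.39 CPM in HFD and 5.56 ± 4.6 CPM in LFD. Per kilobase, C1qa, C1qb and C1qc averaged 1.57, 1 and 1.24 CPM in HFD and 0.362, 0.943 and 0.657 CPM in LFD, below the means of the proteases C1ra and C1s1 in each diet.

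In the alternative pathway, Cfp (properdin, made by neutrophils and monocytes, which stabilizes the C3 convertase) measured 17.4, 21.2 and 17.4 CPM in HFD 2, 3 and 4, against 0.663, 0, 4.67 and 6.28 CPM in LFD 1 to 4. The groups did not overlap, and the log2 fold change was 2.68 ± 1.17 (edgeR adjusted p = 0.663). The estimate was 2.27 without LFD 2, 2.35 without LFD 1, 3.39 without LFD 4 and 3.4 by limma-voom. Cfp was called in no alternative. Cfb, for factor B, averaged 0.410 ± 0.224 CPM in HFD and 0.207 ± 0.336 CPM in LFD, but 79.5% of its exon bases overlap the read-through gene Gm20547, as do 42.8% of those of C2, so that their reads may have been dropped or assigned to it.

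Terminal pathway transcripts were few. C6 measured 10.3, 4.44 and 14.6 CPM in HFD 2, 3 and 4 and 0, 4.70, 0 and 0 CPM in LFD 1 to 4, with an overlap through LFD 2. C7 measured 1.15, 0.725 and 11.2 CPM in HFD 2, 3 and 4 and had 0 counts in all LFD libraries, and HFD 4 held most of its counts. Hc, which encodes C5, and C8a, C8b and C9 had 0 counts in every library. C8g, for a chain of C8, averaged 1.51 ± 0.271 CPM in HFD and 0.753 ± 0.417 CPM in LFD. The precursor of C5a was thus not detected in the libraries in which its receptor was.

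Of 3 tested soluble regulators, 2 had higher and 1 lower estimates in HFD. Clu (clusterin, an inhibitor of the membrane pore that cartilage also makes) measured 3839.4 ± 525 CPM in HFD and 3229.4 ± 2140 CPM in LFD, which overlapped. Vtn (vitronectin, another inhibitor of the pore) lay lower in HFD, at 2.63 ± 0.914 CPM against 6.95 ± 4.07 CPM in LFD, a log2 fold change of -1.40 ± 0.60 (edgeR adjusted p = 0.658). Susd4, a membrane-bound inhibitor, had counts in HFD 4 alone.

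Of the 5 tested membrane regulators, which protect host cells, 1 had a higher and 4 had lower estimates in HFD, with a median log2 fold change of -0.43. Cr1l (Crry, the rodent inhibitor of the C3 convertase) measured 85.9 ± 5.66 CPM in HFD and 82.7 ± 6.76 CPM in LFD, with a log2 fold change of 0.06 ± 0.17. Cd55 (decay accelerating factor) measured 28.1 ± 9.58 CPM in HFD and 28.6 ± 3.39 CPM in LFD, and Cd59a (an inhibitor of the pore) 41.2 ± 12.3 CPM in HFD and 58.4 ± 15.5 CPM in LFD (log2 fold change -0.50 ± 0.29). Thbd (thrombomodulin) measured 24.9 ± 7.06 CPM in HFD and 34.7 ± 17.3 CPM in LFD (-0.48 ± 0.43). None of the 5 reached an unadjusted p of 0.05 by edgeR, and Cr1l had the smallest SE of them.

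Among the other receptors, the subunits of complement receptor 3 of myeloid cells divided the libraries by diet, as C5ar1 did. Within HFD, both were highest in HFD 4, where C5ar1 was lowest. Itgb2 measured 103.1, 81.2 and 134.8 CPM in HFD 2, 3 and 4, against 7.06, 18.3, 35.2 and 39.7 CPM in LFD 1 to 4, with a log2 fold change of 2.09 ± 0.53 (edgeR adjusted p = 0.318). Itgam, its alpha subunit, measured 19.8 ± 4.12 CPM in HFD and 4.67 ± 3.69 CPM in LFD (2.08 ± 0.67, edgeR adjusted p = 0.479), with 68.7% of its exon bases overlapping Gm49368. In neither gene did the groups overlap. C1qbp, a mitochondrial protein that binds C1q, measured 32.3 ± 3.86 CPM in HFD and 41.7 ± 22.1 CPM in LFD and overlapped. Vsig4, a C3b receptor of resident macrophages, had 0 counts in every library, and Cd93 measured 2.61 ± 0.857 CPM in HFD and 1.49 ± 1.92 CPM in LFD.

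**Figure D4:**
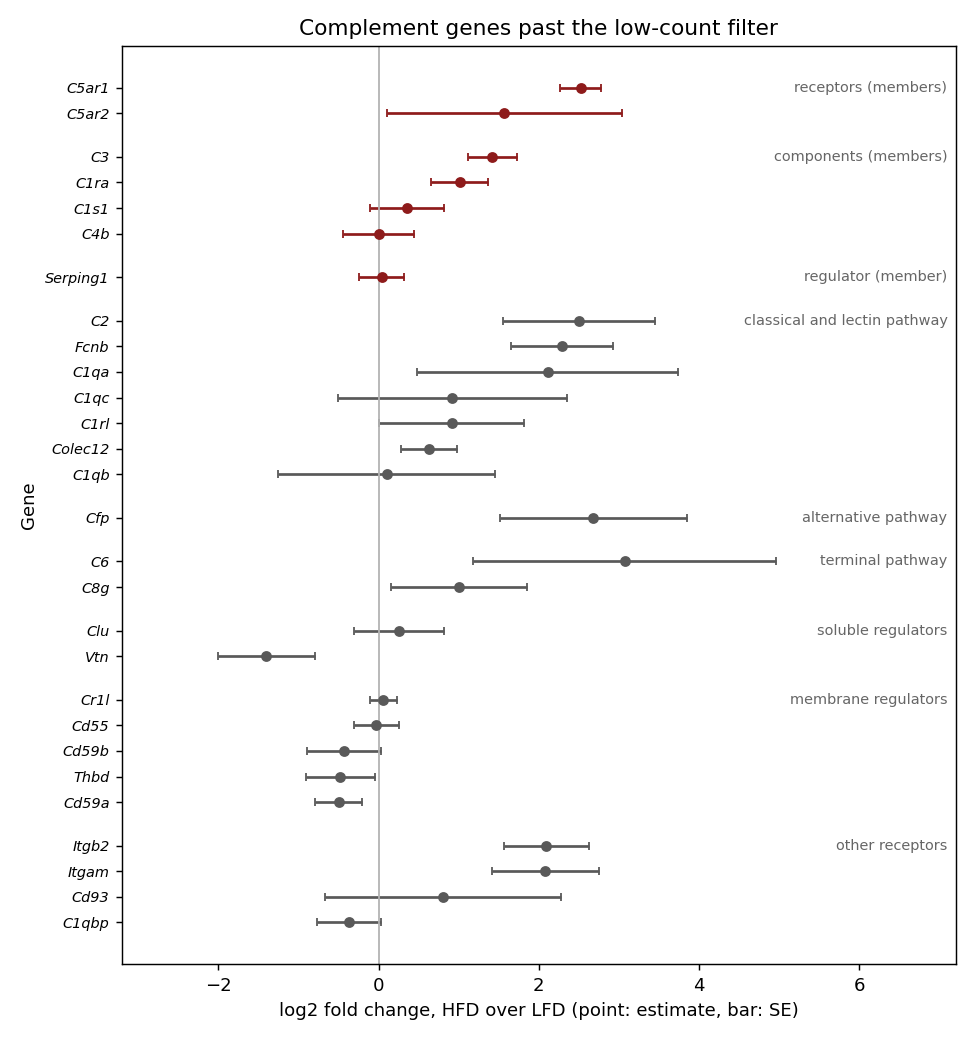
Log2 fold change of HFD over LFD (horizontal axis; point, edgeR estimate; bar, SE) for the complement genes past the filter on low counts, grouped by role, with members in dark red. C7, with 0 counts in LFD, is not drawn, and the plot does not hold every gene counted. Estimates for C5ar1 (2.52), Itgb2 (2.09) and Fcnb (2.29) lie far right of 0, and those of C4b (0.00), Serping1 (0.04) and Cr1l (0.06) lie at 0.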

How the data were processed

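RNA of 7 libraries of sorted cells was amplified to cDNA by SMART-Seq v4 and sequenced with 50-base paired reads, per the labels' protocols. The authors deposited whole-number counts per Ensembl gene, not normalized. STAR 2.5.2b, HTSeq 0.11.2 and the build mm10 appear in the submitters' processing notes, without settings. Whether strand was used in counting is not stated there.

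Symbols were found for 42250 of 42687 identifiers, and positions came from GENCODE M21 (GRCm38). The diets were compared with edgeR 4.0.16 in R 4.3.3 (TMM, filterByExpr, robust quasi-likelihood, diet as sole term, Benjamini-Hochberg adjustment over 14304 genes at 0.05). Alternatives used DESeq2 1.42.0, limma 3.58.1, other scalings and filters, left-out libraries and a replicate block. The procedure was tested on simulated counts, and the outcome of that test is not given here. Nothing says the libraries came from separate animals, so p-values measure the spread between samples, which may be technical. Kits without molecular identifiers mean that limits cover counting error only. Members, lists and tests were chosen with earlier results of these data known. Besides the members, the up to 4 genes per role with the highest mean CPM were named. Some genes chosen by this rule or by correlation are not reported here.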

Additional observations from a re-analysis of the deposited data

Results flagged for a closer look

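In the LFD group of 4 libraries, 5 of 44 values examined had 1 library standing far from the other 3 by Dixon's criterion, where chance flags about 5% of groups. LFD 4 was high for Fcnb (34.5 CPM), for the summed T and NK cell markers (8.11 CPM), for the adipocyte markers (9.79 CPM) and for the mast cell and basophil markers (0.247 CPM). LFD 2 was high for C6 (4.70 CPM), which had 0 counts in the other LFD libraries. The HFD group, with 3 libraries, was not examined in this way.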

How the results depend on the processing

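The number of all genes called (5) was 8 with no filter beyond 1 count, 0 with at least 10 counts in 4 libraries (988 at an unadjusted p under 0.05 by edgeR), 291 by DESeq2, 26 by limma-voom, 0 with the replicate block (1335 unadjusted), 0 with the sex-linked genes left out of the adjustment (1072 unadjusted, an alternative chosen after seeing the data) and 1 to 6 with a library left out. The number of members called (1) was 0 with the stricter filter, 0 with the block and 0 without the sex-linked genes (3 unadjusted in each), 2 by DESeq2 (C5ar1 and C3), and 0 to 1 with a library left out. The number of other complement genes called (0) was 4 by DESeq2 and 0 to 1 with a library left out. Same-numbered libraries of the diets did not deviate together (correlations of -0.095, 0.026 and -0.062). The labels do not say whether the replicate numbers pair the samples, and a check on so few libraries cannot settle it. C5ar1 had a log2 fold change of 2.45 under the block, and its sign held in every alternative run.

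Some of the estimates smaller than their SE changed sign. C4b gave -0.01 with RLE scaling, 0 with the stricter filter, -0.01 by DESeq2, -0.22 by limma-voom, and -0.47, -0.23 and -0.03 without HFD 2, LFD 3 and LFD 4 (range with a library left out -0.47 to 0.2). Serping1 gave -0.03, -0.08 and -0.1 without HFD 2, LFD 2 and LFD 4 (range -0.1 to 0.25). C1qc gave -0.05 by limma-voom and -0.4 without HFD 2 (-0.4 to 1.83), Clu -0.04 without LFD 2 (-0.04 to 0.61), Cd55 0.21 and 0.04 without HFD 2 and LFD 2 (-0.27 to 0.21), and C1qbp 0.09 with the block and 0.04 without LFD 1 (-0.6 to 0.04). With the longest transcript as length, Serping1 was 169.2 in HFD and 165.2 CPM per kilobase in LFD. Depth limits C5ar2, C1qc and C7, which rest on few counts. The cause of these changes was not tested.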
